A study of Mus musculus with 2 samples.

Results

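The genes for the protein subunits of mitochondrial oxidative phosphorylation were examined in mouse embryonic fibroblasts (MEFs) with and without an intact copy of the DNA methyltransferase gene Dnmt1. They were taken by symbol from the deposited expression table: the Nduf genes of complex I, the Sdh genes of complex II, the Uqcr genes of complex III, the Cox4 to Cox8 genes of complex IV and the Atp5 genes of complex V. The rule found 81 entries with 80 gene symbols among the 29126 entries of the table, of which 20906 carried a symbol. Ndufa13 had 2 entries at the same locus. The rule used symbols only and no measured value.

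The table came from strand-specific mRNA-seq of MEFs with the genotypes Dnmt1+/+ and Dnmt1-/-, each represented by 1 library. The -/- cells were homozygous for a hypomorphic Dnmt1 allele, and both lines were null for trp53, the gene for p53, so every value below is from cells without p53. The strain was labelled unknown, and the sex and embryo of origin of each line were not given in the sources used here. With 1 library per genotype there was no estimate of the spread between replicates, no test was possible and no p-value is given, so each difference compares these 2 libraries and not the genotypes in general.

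Oxidative phosphorylation joins the oxidation of NADH and succinate to the synthesis of ATP. Complexes I, III and IV pump protons across the inner mitochondrial membrane as electrons pass from NADH to oxygen, complex II feeds in electrons from succinate, and complex V, the ATP synthase, uses the returning protons to make ATP. Most subunits are coded in the nucleus, and several subunits of complex IV exist as paralogues, of which one is made in most cells and others are made mainly in striated muscle, lung or testis. The DNA methyltransferase Dnmt1 copies methylation of CG dinucleotides to the new strand at replication, and some germ-cell genes are known to be kept silent in somatic cells by methylation of CG-containing promoters.

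Levels are given as RPKM, a read count scaled for transcript length and for the number of mapped reads, so that genes can be compared per length, and a change is the difference in log2(RPKM + 0.1) between Dnmt1-/- and Dnmt1+/+, which understates the change of low genes. An entry was kept for counting when its deposited status was OK and its level was at least 1 RPKM in one library or the other. This left 76 of the 81 oxidative phosphorylation entries and 11244 entries with a symbol in all, whose median change was -0.14. Dnmt1 itself went from 65.2 RPKM in the Dnmt1+/+ library to 14.5 RPKM in the Dnmt1-/- library. The 10 fibroblast markers examined were all kept, and their summed level was 6291 and 4980 RPKM. Of these markers 2 were more than 2-fold higher in Dnmt1-/-, against 8.47% of all entries kept, and 3 were more than 2-fold lower, against 10.9%. The higher ones were S100a4, at 290 RPKM in Dnmt1+/+ and 1262 RPKM in Dnmt1-/-, and Pdgfra, at 6.95 and 18.7 RPKM. The lower ones were Col1a2, at 1241 and 476 RPKM, Fn1, at 664 and 235 RPKM, and Thy1, at 4.84 and 0.129 RPKM.

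The largest differences among the oxidative phosphorylation genes were in the tissue isoforms Cox7b2 and Cox6a2, and no promoter was matched for Cox6a2. The promoters of the complex IV genes Cox7b2, Cox7b and Cox6b2 are printed here so that their CG content can be read. That of the germ-cell ADP/ATP carrier gene Slc25a31 is printed with them. The sequences are from RefSeq (GRCm38.p6), reach from 250 bases before to 50 bases after the annotated start, and run 5′ to 3′ on the strand of the gene, with each CG dinucleotide in capitals. Cox7b2 and Cox7b are the paralogues whose balance differed most between the libraries, Cox6b2 is a testis isoform that stayed near 0, and Slc25a31 is a germ-cell gene outside the complexes that was listed at 0 in one library only. The positions are chr5:71548156-71548455 on the minus strand for Cox7b2, chrX:106015450-106015749 on the plus strand for Cox7b, chr7:4753045-4753344 on the minus strand for Cox6b2 and chr3:40708621-40708920 on the plus strand for Slc25a31.
Cox7b2: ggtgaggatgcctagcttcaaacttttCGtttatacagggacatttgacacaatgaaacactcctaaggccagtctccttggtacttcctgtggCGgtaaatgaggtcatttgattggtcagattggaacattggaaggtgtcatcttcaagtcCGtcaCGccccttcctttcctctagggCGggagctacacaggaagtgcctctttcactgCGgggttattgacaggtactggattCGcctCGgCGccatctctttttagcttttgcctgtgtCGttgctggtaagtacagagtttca
Cox7b: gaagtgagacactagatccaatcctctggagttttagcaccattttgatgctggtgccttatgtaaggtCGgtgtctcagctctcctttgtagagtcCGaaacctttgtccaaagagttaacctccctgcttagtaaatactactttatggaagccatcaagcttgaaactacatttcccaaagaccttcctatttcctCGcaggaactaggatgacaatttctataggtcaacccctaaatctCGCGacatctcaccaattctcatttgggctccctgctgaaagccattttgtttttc
Cox6b2: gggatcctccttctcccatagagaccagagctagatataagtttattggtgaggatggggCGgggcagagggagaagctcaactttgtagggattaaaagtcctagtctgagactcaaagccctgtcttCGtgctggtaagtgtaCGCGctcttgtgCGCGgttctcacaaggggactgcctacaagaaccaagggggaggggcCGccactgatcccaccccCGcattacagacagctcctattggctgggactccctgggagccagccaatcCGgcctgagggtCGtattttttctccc
Slc25a31: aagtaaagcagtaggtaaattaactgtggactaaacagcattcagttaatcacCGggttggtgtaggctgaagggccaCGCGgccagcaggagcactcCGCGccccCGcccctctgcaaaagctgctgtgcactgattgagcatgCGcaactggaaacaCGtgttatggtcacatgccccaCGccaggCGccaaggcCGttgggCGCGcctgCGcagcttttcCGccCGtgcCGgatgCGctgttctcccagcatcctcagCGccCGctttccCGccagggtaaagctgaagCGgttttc
The Cox7b2 promoter held 10 CG dinucleotides in 300 bases, Cox7b 5, Cox6b2 10 and Slc25a31 22. Cox7b2 and Cox6b2 had the same number of CGs, although their RNA levels in Dnmt1-/- were 30.6 and 0.0400 RPKM.

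The promoter table matched 66 of the 80 symbols and held 71 promoters for them, with a median of 19 CGs, against a median of 7 over all 32851 promoters of the same length in the table. The 4 tissue isoforms of complex IV that matched, Cox7b2 and Cox6b2 included, all lay below the median of the group. Cox7a1 had 7 CGs and Cox8b 2, while the widely expressed Cox6a1 had 32 and Cox6b1 17. Cox7b and Cox7c, also widely expressed, had 5 and 14.

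Motif letters were searched on both strands of these windows. The core of the binding motif of the nuclear respiratory factor NRF1, GCATGCGC, was present in 10 of the 71 promoters (14.1%) and in 2.71% of all promoters. The ETS core CCGGAAG, bound by the GABP factors among others, was in 15 of the 71 (21.1%) and in 8.86% of all. The E2F core TCCCGCC, chosen after the sequences had been seen, was in 15 (21.1%) and in 11.3% of all, and none of these motifs contains another. Of the 4 promoters printed above, Cox7b2 and Slc25a31 held the E2F letters, Slc25a31 also held the NRF1 letters, and Cox7b and Cox6b2 held none of the 3 motifs. All 3 motifs contain CG, and the part that the CG content of these windows has in the shares was not tested.

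Most oxidative phosphorylation genes differed little between the libraries. Of the 76 entries kept, 1 was more than 2-fold higher in Dnmt1-/- (Cox7b2), against 8.47% of all 11244 entries kept. In the other direction 1 was more than 2-fold lower (Cox6a2), against 10.9% of all. Cox7b2 reached the minimum of 1 RPKM only in Dnmt1-/- and Cox6a2 only in Dnmt1+/+, so each was kept through the library where it was higher. At a 1.5-fold threshold 3 were higher (Cox7b2, Ndufb11 and Atp5j), against 14.1% of all entries. By the same threshold 5 were lower (Cox6a2, Atp5s, Cox7a2l, Cox7b and the second Ndufa13 entry, whose strand is uncertain), against 23.7% of all. The other 68 entries (89.5%) lay within 1.5-fold, which held for 62.2% of all entries.

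The median change of the oxidative phosphorylation entries was -0.15, with quartiles of -0.37 and 0.07, and that of all entries was -0.14, with quartiles of -0.56 and 0.27. The middle of the group thus lay where the middle of the table lay, and 38 of the 76 entries were above the median of all. Counted from 0 instead, 23 were higher and 53 lower in Dnmt1-/-. The group was highly expressed in both libraries, with a median of 73.0 RPKM in Dnmt1+/+ and 66.5 RPKM in Dnmt1-/-, where all entries kept had medians of 11.3 and 10.3 RPKM. Together its entries made up 2.08% and 2.02% of the summed RPKM of all entries kept.

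Because of these high levels, the group was also set beside entries of like level. Its middle 50% by mean RPKM of the libraries ran from 41.7 to 118 RPKM, a band that held 1316 entries of all kinds and 38 oxidative phosphorylation entries. Within 1.5-fold lay 76.4% of all entries in the band and 35 of the 38, and 5.40% and 3.19% of all entries there were more than 2-fold higher and lower. The median change in the band was 0.02 for all entries and -0.14 for the 38.

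**Figure D1:**
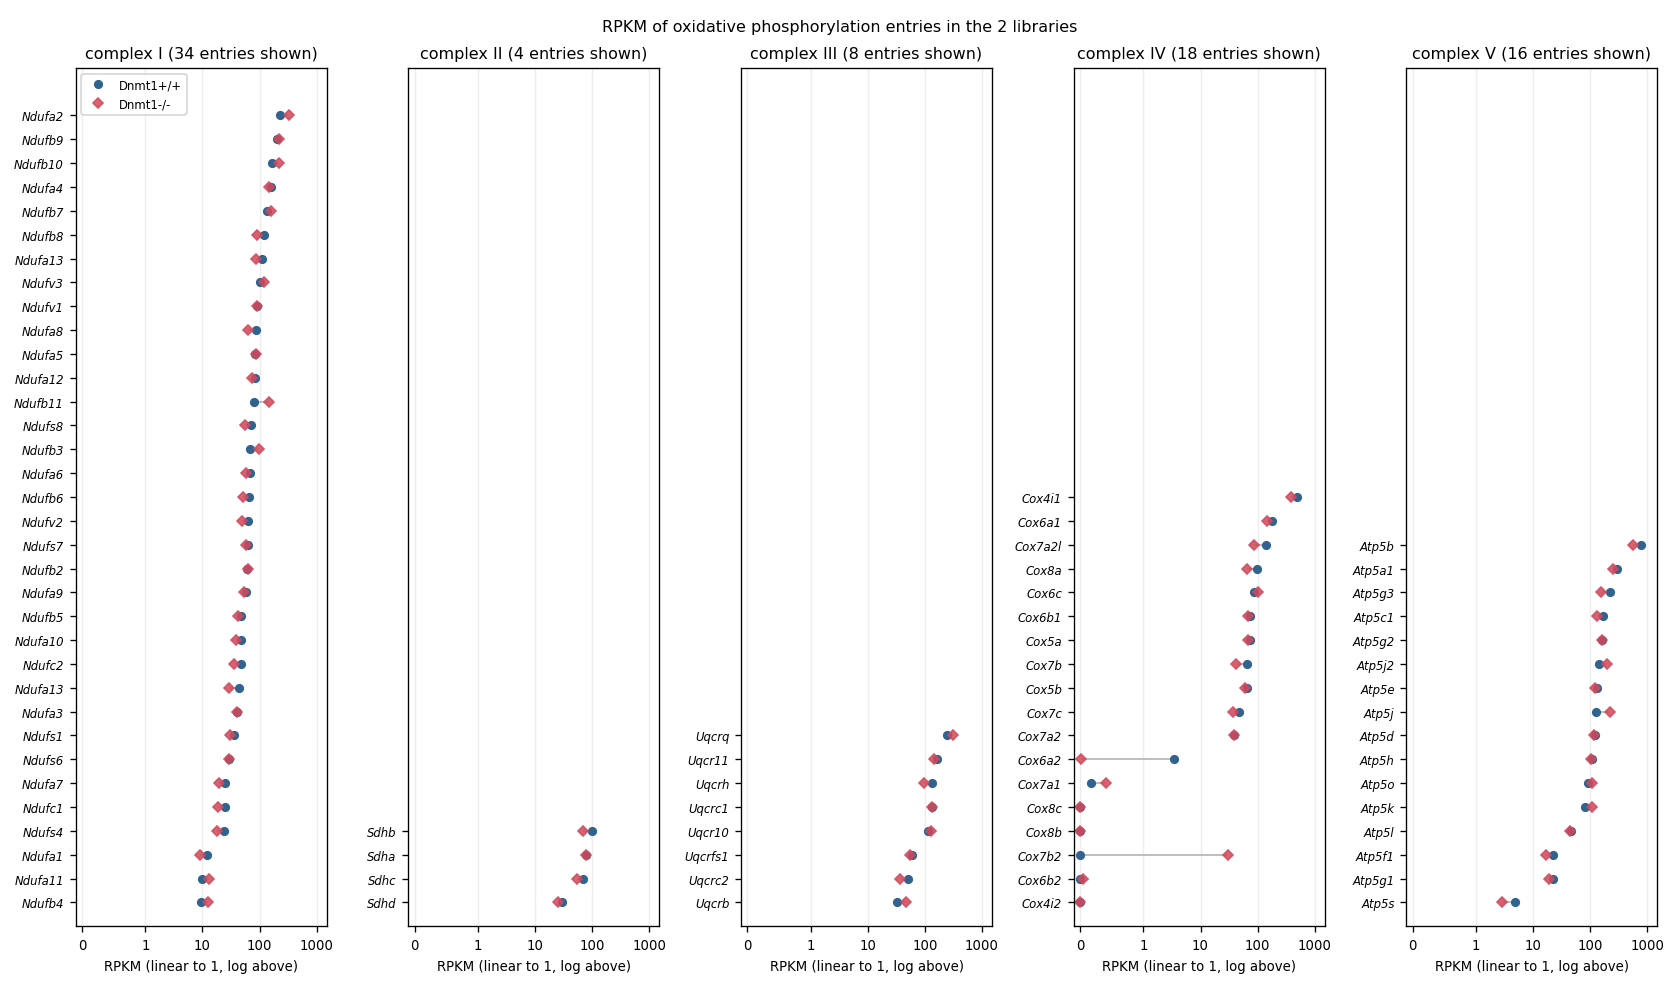
RPKM of the oxidative phosphorylation entries, all but 1 of complex I, in the Dnmt1+/+ library (circles) and the Dnmt1-/- library (diamonds), in 1 panel per complex, on an axis that is linear to 1 RPKM and logarithmic above. The pairs lie close together in all 5 complexes except for Cox7b2 (0 and 30.6 RPKM) and Cox6a2 (3.45 and 0.0110 RPKM), and 3 genes lie at 0 in both libraries.

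The clearest difference in the group was in Cox7b2, the testis isoform of complex IV subunit 7B. Its level was listed at 0 RPKM in Dnmt1+/+ and was 30.6 RPKM in Dnmt1-/-, so no fold is given. The gene lies at chr5:71834063-71939444 on the minus strand (mm9), and none of its 50-base stretches recurs elsewhere in the mm9 genome, at the read length of 50 bases. Its paralogue Cox7b, the widely expressed and X-linked isoform, went the other way, from 65.96 RPKM to 41.4 RPKM (change -0.67). The sum of both was 65.96 RPKM in Dnmt1+/+ and 72.0 RPKM in Dnmt1-/-. Cox7b2 made up 0% of it in the first library and 42.5% in the second. Of all entries kept, 23.7% were more than 1.5-fold lower, as Cox7b was, and a link between the changes of both genes was not tested.

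In bulk RNA, more cells with a transcript and more transcript per cell cannot be told apart. Germ-cell markers were therefore read in the same libraries. Of the 12 examined, 2 were kept, and both were more than 2-fold higher in Dnmt1-/-, against 8.47% of all entries kept. These were Tex19.1, at 0.0186 and 32.1 RPKM, and Tex101, listed at 0 in Dnmt1+/+ and at 3.31 RPKM in Dnmt1-/-. The summed level of the 12 was 0.794 RPKM in Dnmt1+/+ and 35.7 RPKM in Dnmt1-/-, most of the latter from Tex19.1. Tnp1, Mael, Acrv1 and Ldhc were at 0 in both libraries, Dazl was at 0 and 0.119 RPKM, Ddx4 was at 0.00901 and 0.0218 RPKM and Sycp1 was at 0 and 0.0166 RPKM. The other markers were lower in Dnmt1-/-. Sycp3 was at 0.338 and 0.0543 RPKM, Prm1 at 0.354 and 0.126 RPKM and Prm2 at 0.0738 and 0 RPKM. Ddx4, Prm2 and the markers at 0 in both libraries had the status NOTEST. The 2 markers kept reached the minimum of 1 RPKM only in Dnmt1-/-, so they could be kept only by being higher there. Those below the minimum went in both directions. What part cells or transcripts of the germ-cell kind have in the Cox7b2 level was not tested.

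The other testis isoforms of complex IV were at or near 0 in both libraries. Cox6b2, the testis form of subunit 6B, was listed at 0 in Dnmt1+/+ and at 0.0400 RPKM in Dnmt1-/-, beside 73.3 and 66.6 RPKM for the widely expressed Cox6b1. Cox8c, the testis form of subunit 8, was at 0 in both libraries. Outside the complexes, the testis form of cytochrome c, Cyct, was also at 0 in both, whereas Slc25a31, the germ-cell form of the carrier that exchanges ADP for ATP, was listed at 0 in Dnmt1+/+ and at 2.62 RPKM in Dnmt1-/-. Its level was small beside its paralogues, Slc25a4 at 512 and 453 RPKM and Slc25a5 at 128 and 118 RPKM, and it made up 0.457% of the sum of the 3 in Dnmt1-/-.

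Cox6a2, the heart and skeletal muscle isoform of subunit 6A, was the entry with the largest decrease. It stood at 3.45 RPKM in Dnmt1+/+ and 0.0110 RPKM in Dnmt1-/- (change -5.00). It lies at chr7:135348950-135349880 on the minus strand (mm9), and its last 66 bases overlap the 3′ end of Itgad on the plus strand. Itgad was listed at 0 and 0.0875 RPKM, and whether reads were assigned by strand is not given in the sources used here. Even in Dnmt1+/+, Cox6a2 was a minor form, at 1.92% of the sum of the COX6A pair, against 0.00746% in Dnmt1-/-. The widely expressed Cox6a1 was at 177 and 148 RPKM (change -0.25).

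Striated muscle markers went in both directions. The summed level of the 12 examined was 36.3 RPKM in Dnmt1+/+ and 48.8 RPKM in Dnmt1-/-, mostly from the actin gene Acta1 at 28.8 and 42.8 RPKM. Besides Acta1, the markers kept were Tnni2, more than 2-fold higher in Dnmt1-/- at 0.750 and 1.77 RPKM, and the cardiac actin gene Actc1, lower at 5.90 and 4.01 RPKM. Below the minimum, Des was at 0.318 and 0.0780 RPKM, Myh7 at 0.109 and 0.00371 RPKM and Mb at 0.382 and 0 RPKM, all lower like Cox6a2. Ckm, at 0 and 0.0402 RPKM, Myod1, at 0 and 0.0489 RPKM, Myog, at 0.0130 and 0.0355 RPKM, and Myh3, at 0.00870 and 0.0706 RPKM, were higher. All of these were also below the minimum, and Ckm, Myod1 and Myog had the status NOTEST. Ckmt2 (status NOTEST) was at 0.0132 and 0 RPKM, and Tnnt3 had the status FAIL. The part of muscle-type cells or transcripts in the Cox6a2 difference was not tested.

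The remaining muscle and lung isoforms were at or near 0 in both libraries. Cox7a1, the heart and muscle form of subunit 7A, was at 0.171 and 0.411 RPKM. Cox8b, the muscle form of subunit 8, and Cox4i2, the lung form of subunit 4, were listed at 0 in both. Together with Cox6b2 and Cox8c these are the 5 entries that were not kept. Of 9 adipocyte markers, in which tissue some of these isoforms are also made, 1 was kept, Fabp4 at 0.459 and 6.74 RPKM, while Cidec, Plin1, Retn and Ucp1 were at 0 in both. The others were lower in Dnmt1-/-. Lipe (status LOWDATA) was at 2.19 and 0.280 RPKM. Cidea was at 0.0965 and 0 RPKM, Lep at 0.0264 and 0 RPKM and Adipoq at 0.0119 and 0 RPKM, all with the status NOTEST.

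Apart from the COX7B pair in Dnmt1-/-, the widely expressed forms carried at least 98.1% of the summed RPKM of each set of complex IV paralogues. Cox4i1 was at 480 and 388 RPKM (change -0.31), the highest level in complex IV, and Cox8a was at 96.6 and 66.4 RPKM (change -0.54). In the COX7A set, Cox7a2 was at 39.3 and 39.1 RPKM. Cox7a2l, now known as a factor that joins complexes III and IV, was at 140 and 87.6 RPKM (change -0.67), but 54.3% of its 50-base stretches recur elsewhere in the genome, so its level is uncertain.

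The c subunit of the ATP synthase, which forms the rotating ring, is coded by 3 genes whose mature proteins are identical. Atp5g1 was at 21.9 and 18.9 RPKM, Atp5g2 at 158 and 157 RPKM and Atp5g3 at 218 and 156 RPKM (change -0.48 for the last). The sum was 398 RPKM in Dnmt1+/+ and 332 RPKM in Dnmt1-/-. Atp5g3 made up 54.8% of it in the first library and 47.0% in the second, where Atp5g2 made up 47.3%. All 50-base stretches of Atp5g2 recur elsewhere in the genome, so its level and these shares are uncertain.

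**Figure D2:**
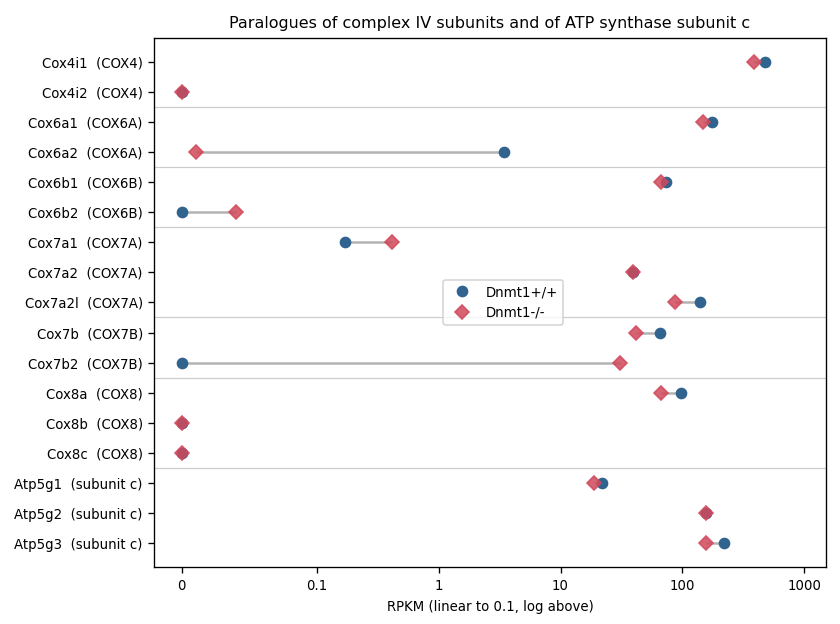
RPKM of the paralogues of complex IV subunits and of the 3 genes for subunit c of the ATP synthase, in the Dnmt1+/+ library (circles) and the Dnmt1-/- library (diamonds), on an axis that is linear to 0.1 RPKM and logarithmic above. Cox7b2 moves from 0 to 30.6 RPKM and Cox6a2 from 3.45 to 0.0110 RPKM, while the other testis, muscle and lung isoforms stay below 1 RPKM.

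In complex I, which takes electrons from NADH, all 35 entries were kept and the median change was -0.12 (0.018 once the median of all entries was subtracted), with levels in Dnmt1+/+ from 9.32 RPKM (Ndufb4) to 231 RPKM (Ndufa2). The largest increase was in Ndufb11, an X-linked accessory subunit of the membrane arm, from 79.7 to 146 RPKM (change 0.88). Ndufb3, another accessory subunit, went from 69.1 to 97.8 RPKM (change 0.50), and Ndufa2 from 231 to 326 RPKM (change 0.50). Of the 29 accessory entries 13 were higher in Dnmt1-/-, as were 4543 of all 11244 entries, and 16 of the 29 lay above the median of all entries. Ndufb4, at 9.32 and 12.3 RPKM, shares 41.3% of its 50-base stretches with other places in the genome, and its low level is uncertain.

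On the lower side, the 2 Ndufa13 entries were at 108 and 87.3 RPKM and at 43.7 and 29.1 RPKM (changes -0.31 and -0.59). Ndufa13 is an accessory subunit also known as GRIM-19. Ndufb8 went from 122 to 88.8 RPKM (change -0.46). Only 1 entry of complex I passed 1.5-fold in each direction, the second Ndufa13 entry and Ndufb11. By the order of its deposited identifier, the second Ndufa13 entry falls among plus-strand genes, whereas Ndufa13 lies on the minus strand. Whether that entry measures Ndufa13 transcripts is therefore uncertain.

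The core subunits of complex I carry the flavin and the iron-sulphur clusters and are shared with the bacterial enzyme. The 6 examined had a median change of -0.20, against -0.12 in the 29 other entries. Ndufv1, which holds the flavin that accepts electrons from NADH, was nearly level at 89.9 and 90.1 RPKM. Ndufv2 was at 62.5 and 49.6 RPKM, Ndufs1 at 36.3 and 30.4 RPKM and Ndufs8 at 71.9 and 55.3 RPKM. Ndufs7, which holds an iron-sulphur cluster near the quinone site, was at 61.9 and 58.5 RPKM. Ndufs3 and Ndufs5 matched no entry and were not analysed here. Ndufa4 was counted with complex I by its symbol, although its protein is now assigned to complex IV, and was at 156 and 149 RPKM.

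Complex II, or succinate dehydrogenase, also belongs to the citric acid cycle and is the only one of the 5 complexes with no mitochondrially coded subunit. All 4 of its genes were lower in Dnmt1-/-, with a median change of -0.29 (-0.15 with the median of all entries subtracted). The flavoprotein gene Sdha hardly differed, at 79.3 and 79.1 RPKM, whereas the iron-sulphur subunit gene Sdhb was at 99.0 and 69.9 RPKM (change -0.50). The membrane anchors Sdhc and Sdhd were at 70.1 and 54.2 RPKM and at 29.4 and 25.3 RPKM. Each change stayed within 1.5-fold, and relative to the median of all entries 3 of the 4 were lower.

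The 8 genes of complex III, which passes electrons from ubiquinol to cytochrome c, had a median change of -0.08 (0.058 with the median of all entries subtracted) and all lay within 1.5-fold. Counting only genes with under 10% of their 50-base stretches elsewhere, the median was -0.000185. The core protein genes Uqcrc1 and Uqcrc2 differed from each other, the first at 132 RPKM in both libraries and the second at 51.1 and 37.1 RPKM (change -0.46). The Rieske iron-sulphur protein gene Uqcrfs1 was at 60.5 and 53.9 RPKM. Of the small subunits, Uqcrq was highest at 248 and 313 RPKM (change 0.34). Uqcrh, the hinge protein, was at 135 and 97.4 RPKM (change -0.47). Uqcrb had the largest increase, from 32.6 to 46.9 RPKM (change 0.52), but 61.5% of its 50-base stretches recur elsewhere, so its level is uncertain.

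Complex IV, cytochrome c oxidase, reduces oxygen to water. Its 13 entries kept had a median change of -0.25 (-0.11 with the median of all entries subtracted). Counted from 0, 11 of the 13 were lower in Dnmt1-/-, as were 6701 of all 11244 entries, and 6 of the 13 lay above the median of all entries. Besides Cox7b2, Cox6c, a small subunit, was the other gene that was higher, at 87.1 and 100.3 RPKM. Cox5a and Cox5b, counted here with the core, were nearly level, at 72.6 and 69.2 RPKM and at 64.1 and 59.3 RPKM. Of the 13, 3 were more than 1.5-fold lower, a share near the 23.7% of all entries, and the median of the complex moved to -0.14 when only genes with under 10% of their 50-base stretches elsewhere were counted.

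Complex V had a median change of -0.13 over 16 entries, or 0.0069 with the median of all entries subtracted. It was -0.25 when only genes with under 10% of their 50-base stretches elsewhere were counted. Its catalytic beta subunit gene Atp5b had the highest level of all oxidative phosphorylation genes, at 764 and 556 RPKM (change -0.46). The alpha subunit gene Atp5a1 was at 293 and 247 RPKM, and Atp5c1, which codes for the gamma subunit of the rotor, at 169 and 132 RPKM. All 3 genes of the catalytic head and its rotor shaft counted as core were thus lower. In contrast Atp5j, coupling factor 6 of the outer stalk, went from 127 to 217 RPKM (change 0.77), and Atp5j2, a membrane subunit, from 142 to 197 RPKM (change 0.47). Atp5s had the lowest level, 4.80 and 2.82 RPKM (change -0.75), and codes for a coupling factor that is not a structural subunit.

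**Figure D3:**
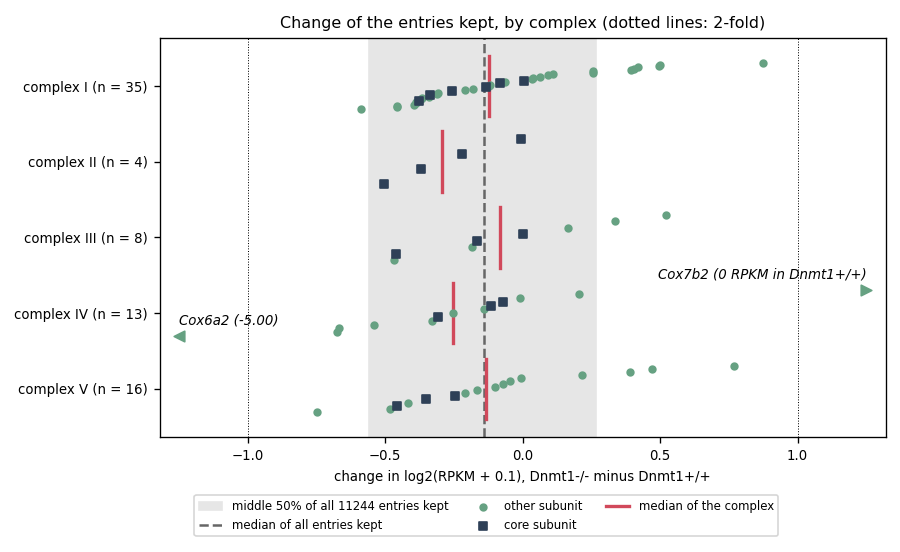
Change in log2(RPKM + 0.1), Dnmt1-/- minus Dnmt1+/+, of each entry kept, by complex. Squares are the subunits counted here as core and circles are the other subunits. A red line marks the median of each complex, a dashed line the median of all 11244 entries kept and a grey band their middle 50%. Triangles mark Cox6a2 (-5.00) and Cox7b2 (0 RPKM in Dnmt1+/+), which lie beyond the axis; the complex medians run from -0.29 to -0.08.

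Taking the subunits counted here as core in all complexes as 1 list, 18 of the 19 were lower in Dnmt1-/-. Their median change was -0.25, and all 19 lay within 1.5-fold. Of the 57 other entries 22 were higher, with a median of -0.12. The one core gene above 0 was Ndufv1. Part of this count follows from the table as a whole, whose median was -0.14, with 6701 of all 11244 entries lower. Above that median were 7 of the 19 core genes. The list was chosen here and includes Cox4i1, Cox5a and Cox5b of complex IV, which are nuclear-coded. For complex V it holds only Atp5a1, Atp5b and Atp5c1. Atp5d and Atp5o (changes -0.05 and 0.22) were counted with the other entries, for example, so the count depends on that choice. For Cox5b, 62.7% of the 50-base stretches recur elsewhere, so its level is uncertain.

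The change was also read against transcript length. The oxidative phosphorylation entries had a median transcript length of 686.5 nucleotides, against 2299 over all entries. The 40 entries under 700 nucleotides had a median change of -0.09, where all entries of that length had -0.03. From 700 to under 1000 nucleotides the medians were -0.06 for 12 entries and -0.08 for all. The 18 entries of 1000 to under 2000 nucleotides had a median of -0.38 and a highest change of 0.0035, whereas all entries of that length had a median of -0.09. At 2000 nucleotides or more the medians were -0.13 for 6 entries and -0.18 for all. Over the 76 entries Pearson's r of change and log2 length was -0.12 and Spearman's rho -0.25, as a description over genes that share both libraries.

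**Figure D4:**
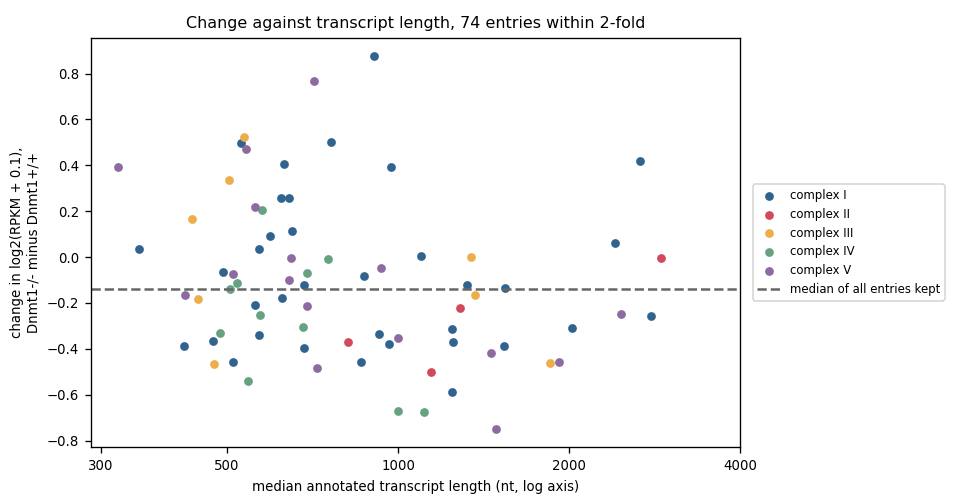
Change in log2(RPKM + 0.1), Dnmt1-/- minus Dnmt1+/+, against the median annotated transcript length in nucleotides (log axis) for the 74 oxidative phosphorylation entries within 2-fold, coloured by complex, with a dashed line at the median change of all entries kept (-0.14). Entries of 1000 to under 2000 nucleotides lie at 0.0035 or below, and shorter entries lie on both sides.

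Processed pseudogenes are common for this family, and they can take or lend reads. Of the 80 symbols, 58 had under 10% of their 50-base stretches elsewhere in the mm9 genome and 39 had none, while 6 had at least 50% (Atp5g2, Atp5l, Cox5b, Uqcrb, Atp5h and Cox7a2l). Ndufb11 and Atp5j, with the largest increases after Cox7b2, had 15.4% and 16.7%.

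The mitochondrially coded subunits could not be read gene by gene. None of 26 spellings of their symbols matched an entry. A single entry without a symbol spanned the mitochondrial genome from position 7 to 16297 and was at 943 RPKM in Dnmt1+/+ and 850 RPKM in Dnmt1-/- (change -0.15).

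Assembly factors insert cofactors and join subunits but are not part of the finished complexes. The 29 found had a median change of 0.01. None was more than 2-fold higher, against 8.47% of all entries kept, and 2 were lower, against 10.9% of all. Those 2 were Tmem126b, a complex I assembly factor, at 8.48 and 4.12 RPKM, and Lyrm7, which helps to insert the Rieske protein into complex III, at 1.26 and 0.483 RPKM. Uqcrfs1, the Rieske gene itself, was within 1.5-fold. On the higher side, Cmc1, a complex IV assembly factor, went from 21.5 to 39.6 RPKM, the copper chaperone Cox17 from 39.7 to 67.3 RPKM and the complex I assembly factor Ndufaf2 from 101 to 156 RPKM, all short of 2-fold.

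Among 13 partners of the complexes, 11 were kept, with 1 more than 2-fold higher (Slc25a31, described above) and none lower. Slc25a31 reached the minimum of 1 RPKM only in Dnmt1-/-, so it could be kept only by being higher there. The shares over all entries kept were 8.47% and 10.9%. Cycs, the somatic cytochrome c, was at 24.7 and 31.4 RPKM, and Atpif1, the inhibitor of ATP synthase, at 273 and 185 RPKM. Ndufa4l2, a paralogue of Ndufa4, was low in both libraries at 0.261 and 0.147 RPKM.

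Regulators of mitochondrial genes showed no difference past 2-fold among the 11 of 14 that were kept, and their median change was 0.04. Over all entries kept, 8.47% were more than 2-fold higher and 10.9% lower, so a count over 11 genes says little. Tfam, which packages and transcribes mitochondrial DNA, was at 22.2 and 21.1 RPKM. Gabpa, whose protein binds the ETS letters searched above, was at 18.6 and 16.8 RPKM, and Hif1a, the oxygen-regulated factor, at 48.1 and 30.7 RPKM. Ppargc1a, the coactivator of mitochondrial biogenesis, was at 0.0580 and 0.00584 RPKM and its relative Ppargc1b at 0.585 and 0.0228 RPKM, both below the minimum. Nrf1 had the status FAIL and was listed at 0 in both, so no level was available for it.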

How the data were processed

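Strand-specific mRNA-seq of 1 Dnmt1+/+ and 1 Dnmt1-/- MEF library (single-end reads of 50 bases) was used. TopHat was used by the authors for mapping (mm9), Cufflinks for assembly and Cuffdiff for the deposited RPKM values, given as 1 column per library with a status per entry. Versions are not given in the sources used here, nor is how ambiguous reads or strand were handled. The columns of the authors' own comparison (fold change and p-values) were not used. RPKM values carry no counts per entry, and no interval is given. The paper lists the mapped reads of each library, but approximate counts were not worked out from them here. As a check of scale, 436 entries under 0.03 RPKM in both libraries had a commonest ratio of Dnmt1-/- to Dnmt1+/+ of 0.885, the relative worth of 1 read if each held equal reads.

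Samples were grouped by the genotype in their labels. Log2(RPKM + 0.1) was compared after keeping entries with status OK, a symbol and at least 1 RPKM in one library. Calls were differences over 2-fold or 1.5-fold, with no test. Genes named were the paralogue sets, core subunits, entries past 2-fold, entries not kept, and the highest, the lowest and the 2 largest increases and decreases of each complex; other genes are examples from the lists, and 1 core subunit of complex I, included in the counts and medians, is not reported here by itself. The genes examined and all lists were chosen with earlier results of these data known. Recurrence of 50-base stretches was counted on both strands of the mm9 genome, transcript lengths are medians over annotated coding transcripts (GENCODE M1), and promoters are from RefSeq (GRCm38.p6). Scripts ran in Python 3.11.15 with numpy 2.4.6 and pandas 2.3.3 and were tested on simulated data. Alternatives were the pseudocount, the filter, the scale, the threshold and the set of genes.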

Additional observations from a re-analysis of the deposited data

How the results depend on the processing

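Of 87 values recomputed under alternatives, 11 moved, a median by over 0.1 or a count by over 1.5 times. The 2 isoforms past 2-fold kept their direction, but their log2 change rests on the pseudocount and the scale, and that of Cox6a2 ranged from -7.36 to -2.14. With the median of all entries subtracted, the median change of the oxidative phosphorylation entries was -0.012, and those of complexes I to V were 0.018, -0.15, 0.058, -0.11 and 0.0069, so that the medians of complexes I, III and V changed sign, and 2 entries instead of 1 were more than 2-fold higher (Ndufb11 joined Cox7b2). The median subtracted was -0.14, whereas entries of all kinds from 41.7 to 118 RPKM had a median of 0.02, which was not subtracted. At 1.5-fold 3 oxidative phosphorylation entries were higher and 5 lower. Counting only genes with under 10% of 50-base stretches elsewhere, chosen after seeing the data, gave -0.000185 for complex III, -0.14 for complex IV and -0.25 for complex V. Summing the 2 Ndufa13 entries, also chosen after seeing the data, gave a median of -0.14 over the oxidative phosphorylation entries and was run for that median alone. Scaling both libraries to the same summed RPKM put the median of all entries at -0.18 instead of -0.14. No paired analysis was possible because each genotype has 1 library, and for the same reason no replicate could be left out. No limit was worked out for values at 0, because the deposited values carry no counts per entry.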

Other observations

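Other large protein families, given for the scale of a whole-family difference in these 2 libraries, had medians on either side of that of the oxidative phosphorylation genes (-0.15). The 93 cytoplasmic ribosomal protein entries kept had a median change of -0.40, with 2 more than 2-fold higher in Dnmt1-/- and 4 lower. The 77 entries for mitochondrial ribosomal proteins, of the ribosome that translates the mitochondrially coded subunits, had a median of 0.05, with 1 higher and none lower. The 39 proteasome subunit entries kept had a median of -0.23, with 3 higher and 2 lower. Over all entries kept, 8.47% were more than 2-fold higher and 10.9% lower. Relative to the median of all entries (-0.14), 60 of the 77 mitochondrial ribosomal entries, 25 of the 93 cytoplasmic ones and 14 of the 39 proteasome entries lay above it. These are values from 1 library per genotype, and the differences between families were not tested.

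Of the 3 X-linked oxidative phosphorylation genes, Ndufb11 was higher in Dnmt1-/- (change 0.88) and Cox7b and Ndufa1 were lower (changes -0.67 and -0.39), with Ndufa1 at 12.02 and 9.16 RPKM.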
